A study of Mus musculus with 2 samples.

Results

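The HOX genes are the transcription factor genes of the 4 Hox clusters, which give cells a record of their place along the body axis. They were taken here as all gene symbols made of Hoxa, Hoxb, Hoxc or Hoxd and a paralogue number, 39 of the 27514 genes measured, and were described by cluster and by paralogue number in single-cell RNA-seq of endothelial cells from the dorsal aorta of mouse embryos at embryonic day 10.5. Of the 39 members, 26 held at least 50 unique molecular identifiers (UMIs, each standing for 1 captured transcript) over all cells and were described gene by gene. The other 13 held 156 UMIs together, and Hoxb13 and Hoxc12 held 0.

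There were 2 libraries, 1 of wild-type and 1 of SP3-null embryos, SP3 being a zinc finger factor that binds GC-rich promoters. Heterozygous Sp3 carriers of the strain mix C57Bl6/J x B6129SF1/J were crossed to obtain both, and embryos alike in genotype were combined before the sort, so that the number and the sexes of the embryos behind each library were not known. The null allele was inherited and not limited to endothelium, and the sources used here do not give the part of the gene that the allele removes. All sorted cells were Ter119-, CD41 low or negative, and positive for CD31, CD144 and ESAM. The study placed them in classes that begin with arterial endothelium (AE) and go on to conflux AE, the AE state from which blood-forming cells branch, and pre-hemogenic endothelium (pre-HE). The later classes are hemogenic endothelium (HE) and the cells of the clusters inside the aorta (IAC). AE and venous endothelium (VE) were each split into Wnt-high and Wnt-low cells, and the remaining vessels were called other endothelium.

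HOX genes lie in 4 clusters in the order of their paralogue numbers, and in the trunk low numbers are switched on early and far to the front, high numbers later and closer to the tail. The proteins bind DNA with PBX and MEIS partners, are switched on by retinoic acid, FGF and CDX factors, and are held on or off by the MLL and Polycomb complexes. In blood formation, members of the HOXA cluster are known for roles in stem and progenitor cells, among which Hoxa9 sustains their growth.

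In all, 4451 wild-type cells gave 79456081 UMIs (median 14664 per cell) and 3954 SP3-null cells 71154918 UMIs (median 15638.5), and 5 cell barcodes occurred in both. Values are CPM, the UMIs of a gene or cluster scaled to counts per 1e+06 UMIs of the summed cells, with exact 95% intervals in brackets that cover counting error only. As there was 1 library per genotype, no test was possible, no difference has a replicate check, and library, embryo pool and genotype cannot be told apart. Ratios are log2 of SP3-null over wild-type unless another pair is named. "Summed endothelium" means both AE and both VE classes with conflux AE and pre-HE, 2639 wild-type and 2401 SP3-null cells. Sp3 itself (chromosome 2, 72936430 to 72980446, GRCm38.p6) stood there at 46.3 and 35.6 CPM in the wild-type and SP3-null library, and as the 3' end that was read may lie outside the removed part, this level does not check the labels. Each of the 5 endothelium markers Cdh5, Pecam1, Kdr, Emcn and Esam was detected in all 9 classes of both libraries. In IAC, 71 of 128 wild-type and 56 of 107 SP3-null cells also carried 2 or more of 6 macrophage genes.

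The 4 clusters differed widely in how much RNA they gave. HOX genes held 41730 UMIs, 0.0277% of all UMIs. HOXB gave most, 21003 UMIs from a cluster on chromosome 11 (96194316 to 96368254), with 8 of 10 members at 50 UMIs or more. HOXA followed with 16319 UMIs (chromosome 6, 52155367 to 52260880), with 10 of 11 members. HOXD gave 3102 UMIs (chromosome 2, 74668225 to 74765142), with 3 of 9 members, and HOXC 1306 UMIs (chromosome 15, 102921131 to 103036856), with 5 of 9. The HOXD cluster and Sp3 share a chromosome, with a gap of 1.69 Mb between them.

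Within the clusters, the central paralogues carried most of the RNA. Hoxa9, of the posterior group that begins with paralogue 9, had the most UMIs of all (4676). Behind it came the trunk paralogues Hoxb4 (4314), Hoxb7 (3915), Hoxb8 (3633), Hoxa5 (3490) and Hoxa7 (3324). Hoxb9 (2555), Hoxb2 (2538), Hoxd8 (1949) and Hoxa3 (1801) closed the list of the 10 members with the most UMIs. Hoxc9 (600) led its cluster. Just inside the limit of 50 UMIs stood Hoxa6 with 86 and Hoxa11 with 89, and just outside it Hoxd3 with 44 and Hoxb1, the hindbrain paralogue, with 30. The tail-end paralogues were nearly silent, with 14 UMIs of Hoxa13, 1 of Hoxc13, 4 of Hoxd13, 2 of Hoxd12, 12 of Hoxd11 and 4 of Hoxc11. The remaining low members were Hoxd4 (16), Hoxc5 (15) and Hoxd1 (14). HOX genes overlap in several places (Hoxa3 to Hoxa6, Hoxb3 with Hoxb4, Hoxd3 with Hoxd4, Hoxd10 with Hoxd11) and have antisense RNAs, so that the split of 3' UMIs between such neighbours is uncertain.

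The promoter sequences of the leading members of HOXA, HOXB and HOXD are shown with the GC box, a motif that SP factors bind, marked. The 250 bases before the start of each are from RefSeq (GRCm38.p6), 5' to 3' on the gene's strand, with capitals for the GC box (GGGCGG or its complement CCGCCC, both strands searched). They lie at chr6:52227371-52227620 on the minus strand (Hoxa9), chr11:96318017-96318266 on the plus strand (Hoxb4) and chr2:74704365-74704614 on the plus strand (Hoxd8).
Hoxa9: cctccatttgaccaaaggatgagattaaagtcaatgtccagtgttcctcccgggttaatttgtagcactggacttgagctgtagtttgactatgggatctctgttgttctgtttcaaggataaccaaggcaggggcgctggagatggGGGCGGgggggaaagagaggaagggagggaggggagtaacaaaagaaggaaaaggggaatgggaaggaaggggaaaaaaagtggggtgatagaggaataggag
Hoxb4: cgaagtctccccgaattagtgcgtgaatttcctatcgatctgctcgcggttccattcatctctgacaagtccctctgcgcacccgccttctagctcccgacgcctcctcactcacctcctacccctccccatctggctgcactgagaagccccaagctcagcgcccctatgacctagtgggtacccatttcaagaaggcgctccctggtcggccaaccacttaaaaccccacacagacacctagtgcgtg
Hoxd8: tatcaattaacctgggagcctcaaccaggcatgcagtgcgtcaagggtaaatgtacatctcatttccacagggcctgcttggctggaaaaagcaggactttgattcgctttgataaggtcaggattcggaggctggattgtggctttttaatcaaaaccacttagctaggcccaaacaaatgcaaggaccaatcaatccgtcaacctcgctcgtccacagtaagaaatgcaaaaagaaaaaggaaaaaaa

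The Hoxa9 window held 1 GC box, and those of Hoxb4 and Hoxd8 held 0. Of 24 HOX promoters in the table, from 22 of the 39 genes, 10 (41.7%) held a GC box, against 32.7% of 32851 promoters of all genes. HOX promoters were also richer in G and C, with a median of 58.6% against 52.4%. A match describes these letters, no binding was measured, and a link between the motif and HOX levels was not tested.

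In arterial endothelium the HOX code was led by HOXB, with HOXA second. All HOX genes together stood at 253 CPM (245 to 262) in AE of the wild-type library and at 180.4 CPM (173 to 188) in AE of the SP3-null library. HOXB made up most of this, at 142 and 101 CPM, followed by HOXA at 81.3 and 57.5 CPM, HOXD at 25.2 and 18.4 CPM, and HOXC at 4.55 and 2.97 CPM. The highest single members in wild-type AE were Hoxb4 at 30.7 CPM, Hoxb8 at 26.6 CPM, Hoxb7 at 24.9 CPM and Hoxa9 at 22.9 CPM. In SP3-null AE the same 4 stood at 24.0, 19.2, 17.4 and 14.5 CPM. Venous endothelium carried nearly the same mixture, with 270.3 and 225 CPM of HOX RNA in the wild-type and SP3-null library. Hoxb4 in wild-type VE was at 27.6 CPM, Hoxb7 at 31.9 CPM and Hoxa9 at 27.3 CPM. The heat map of HOX genes by class shows the broad arterial and venous band from Hoxb2 to Hoxb9 and the dark HOXC rows, which mark low levels. CPM here count transcript ends and are not divided by length, so levels of different genes compare captured molecules.

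**Figure D1:**
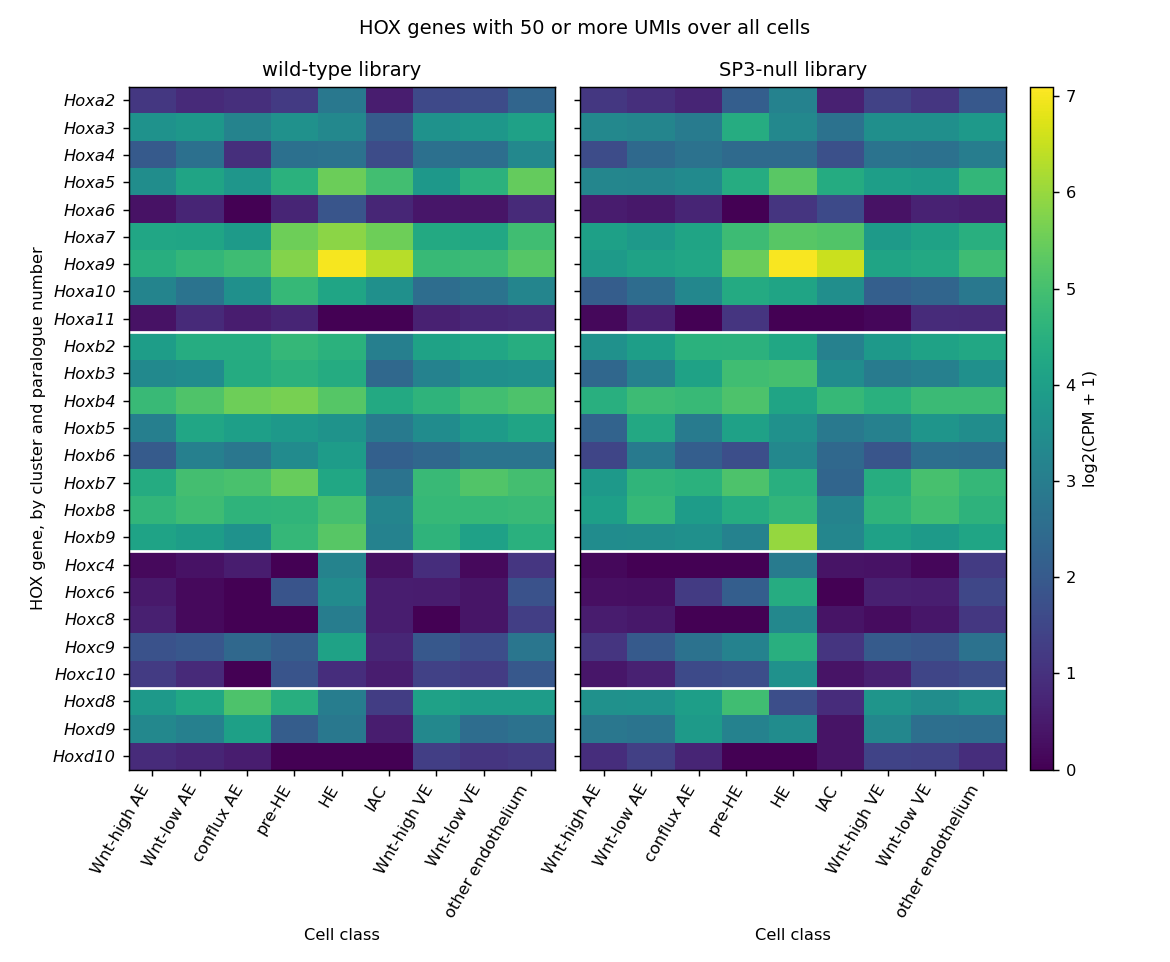
Level of HOX genes with at least 50 UMIs (rows, ordered by cluster and paralogue number) in each of the 9 classes (columns), as log2 of CPM plus 1, in the wild-type and the SP3-null library. In the wild-type library Hoxa9 is at 22.9 CPM in AE, 128 in HE and 80.6 in IAC, while the HOXD genes are near 0 in IAC.

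Along the path to blood, pre-HE and HE held more HOX RNA than AE, and in IAC most of it was HOXA. From AE to conflux AE the wild-type sum went from 253 to 311 CPM, and it stood at 423 CPM in pre-HE and 519 CPM in HE. In the SP3-null library the same classes stood at 180.4, 229.9, 373 and 526 CPM. Without HE cells that carried neural or mesenchyme genes, HE was at 395 and 376 CPM. In IAC, the cells that bud into the vessel, the sum was 240.3 and 247 CPM, near AE in the wild-type (log2 ratio over AE -0.08, -0.18 to 0.02) and above it in the SP3-null library (0.45, 0.34 to 0.57), and its makeup differed from that of AE. HOXA in IAC was at 174 and 169 CPM in the wild-type and SP3-null library, a log2 ratio over AE of 1.09 and 1.55. HOXB in IAC was at 62.4 and 74.9 CPM, -1.19 and -0.44 relative to AE, and HOXD at 1.90 and 1.43 CPM, -3.73 and -3.68 relative to AE. The classes were assigned from the expression of the same cells, so comparisons between classes describe them and are no test.

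**Figure D2:**
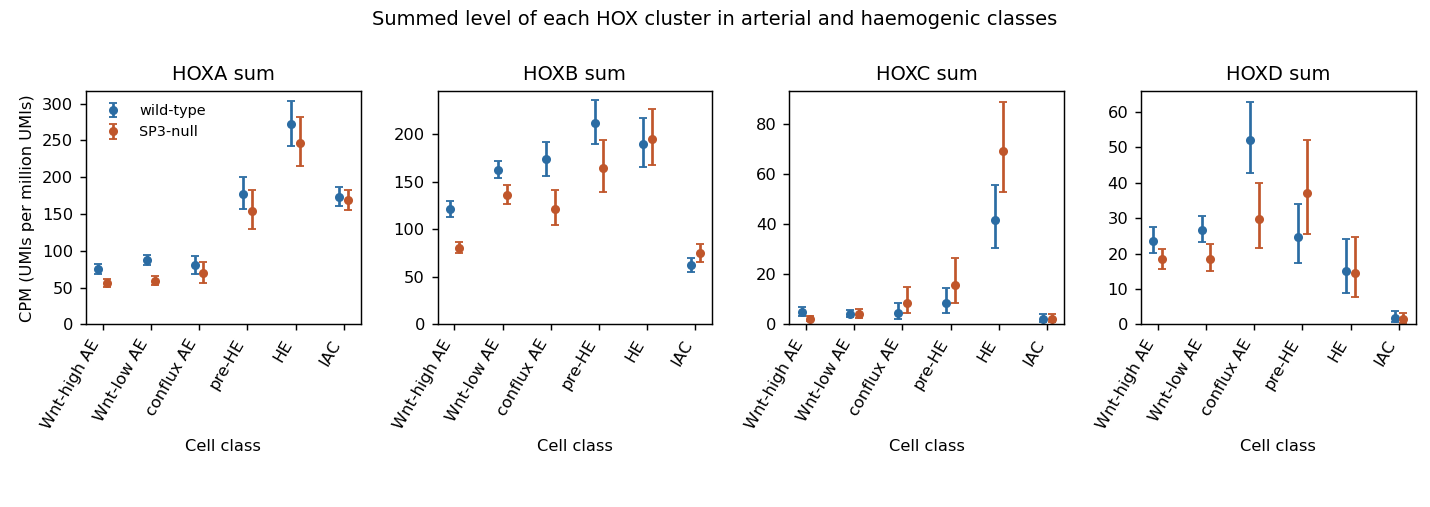
Summed CPM of the HOXA, HOXB, HOXC and HOXD genes in 6 classes from Wnt-high AE to IAC, wild-type and SP3-null, with exact 95% Poisson intervals. In the wild-type library HOXA goes from 272 CPM in HE to 174 in IAC, and HOXD from 52.1 CPM in conflux AE to 1.90 in IAC.

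Hoxa9 carried most of the HOXA difference. It stood at 22.9 CPM in wild-type AE, 28.6 in conflux AE, 54.0 in pre-HE, 128 in HE and 80.6 in IAC. In the SP3-null library the levels were 14.5, 17.5, 43.8, 129.5 and 92.1 CPM in the same order. In IAC, Hoxa9 was above AE by a log2 ratio of 1.82 in the wild-type and 2.67 in the SP3-null library. Hoxa5 and Hoxa7 were the other members with a log2 ratio over AE of 1 or more in both libraries, at 29.6 and 45.5 CPM in IAC of the wild-type and 19.8 and 35.3 CPM in IAC of the SP3-null library. These 3 of 26 members compare with 10.2% of all genes. In the opposite direction 7 members had a ratio of -1 or less in both libraries, against 17.4% of all genes, among them Hoxd8, Hoxd9, Hoxd10, Hoxb7 and Hoxb8. Of the 7, Hoxa11 had 0 UMIs in IAC and Hoxd10 0 and 1, with under 1 CPM in wild-type AE, too few to show a difference. Hoxb7, among the highest members in AE, stood at 5.45 and 4.02 CPM in IAC (ratio over AE -2.19 and -2.11), and Hoxd8 at 1.42 and 0.861 CPM (-3.44 and -3.69). Hoxb4, known for its use in expanding blood progenitors, had an AE level of 30.7 and 24.0 CPM and an IAC level of 19.0 and 25.8 CPM. In cells without markers of other lineages, the SP3-null HOXB ratio of IAC over AE was 0.21 in place of -0.44, with 65 of 107 SP3-null IAC cells left out, so that its direction depended on which cells were counted. The HOXD sum in IAC rests on 8 wild-type and 5 SP3-null UMIs.

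Pre-HE held more RNA of some further members than AE. Hoxb3, a neighbour of Hoxb4, had 9.58 and 5.51 CPM in AE. It stood at 19.7 and 16.2 CPM in conflux AE, while pre-HE held 22.8 and 29.2 CPM. In IAC it was at 4.27 and 10.04 CPM, below AE in the wild-type (log2 ratio -1.17) and above it in the SP3-null library (0.87). Hoxa10 was highest in pre-HE, at 26.0 and 19.1 CPM, against 6.86 and 3.82 CPM in AE and 10.9 and 10.3 CPM in IAC. Hoxb2, a paralogue of the hindbrain and trunk, differed less along the path, from 17.2 and 12.4 CPM in AE over 25.4 and 22.4 CPM in pre-HE to 7.35 and 7.75 CPM in IAC. Pre-HE rests on 136 and 92 cells, and its levels therefore have wide counting intervals.

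The split of AE by Wnt target expression also separated some HOXB members. Hoxb5 stood at 7.37 and 3.83 CPM in Wnt-high AE and at 17.6 and 18.6 CPM in Wnt-low AE, and Hoxb6 at 3.14 and 1.80 CPM against 7.57 and 6.64 CPM. Hoxb7 stood at 19.5 and 13.4 CPM against 30.3 and 24.1 CPM. All 3 were lower in Wnt-high AE in both libraries. Hoxb9, further toward the posterior end of the same cluster, was at 16.5 and 9.91 CPM in Wnt-high AE and at 14.3 and 10.2 CPM in Wnt-low AE, and Hoxa7 at 17.5 and 15.3 CPM against 16.9 and 13.1 CPM. The HOX sum was 225 and 158 CPM in Wnt-high AE and 281 and 218 CPM in Wnt-low AE.

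Hemogenic endothelium held more HOXA, HOXB and HOXC RNA than AE, but a small number of its cells decided the HOXB and HOXC levels. HOXD was not higher, with a log2 ratio over AE of -0.74 (-1.53 to -0.04) and -0.35 (-1.27 to 0.45). Over the 59 wild-type and 40 SP3-null HE cells, 13 of 26 members had a log2 ratio over AE of 1 or more in both libraries (8.7% of all genes), and Hoxd8, Hoxd10 and Hoxa11, which makes 3, had -1 or less (9.91% of all genes). The 13 were 6 of HOXA (Hoxa2, Hoxa5, Hoxa6, Hoxa7, Hoxa9 and Hoxa10), 3 of HOXB (Hoxb3, Hoxb6 and Hoxb9) and 4 of HOXC (Hoxc4, Hoxc6, Hoxc8 and Hoxc9). HOXC stood at 41.8 and 69.2 CPM, against 4.55 and 2.97 CPM in AE. Of the HOXC UMIs in HE, however, 31 of 47 in the wild-type and all 62 in the SP3-null library came from cells with 2 or more neural or mesenchyme genes, of which there were 3 in the wild-type and 5 in the SP3-null library. These cells held neural Sox2 at 366 and 436 CPM and Tubb3 at 1127 and 386 CPM, whereas both were at 0 in the other HE cells, and they had endothelial Cdh5 at 14.1 and 114 CPM, against 620.5 and 594 CPM in the other HE cells.

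Without those cells, a choice made after seeing the data, HE stood above AE in HOXA and near AE in HOXB. The 56 wild-type HE cells that were left had a HOX sum of 395 CPM and the 35 SP3-null cells a sum of 376 CPM, log2 ratios over AE of 0.64 and 1.04. HOXA kept its level, at 249.5 and 251 CPM, and HOXB stood at 119.5 and 118 CPM. HOXC stood at 15.2 CPM in the wild-type and at 0 UMIs in the SP3-null library, which allows up to 5.002 CPM. HOXD had a log2 ratio over AE of -1.28 and -1.47, from 11 and 5 UMIs. Hoxa5, Hoxa7, Hoxa9 and Hoxa10 were the 4 members with a ratio over AE of 1 or more in both libraries (7.22% of all genes). Hoxa9 stood at 126 and 146 CPM, and Hoxa10, the next paralogue of the same cluster, at 18.03 and 12.2 CPM against 6.86 and 3.82 CPM in AE. Hoxd8, Hoxd10, Hoxa11 and Hoxc4 were the 4 members with -1 or less (12% of all genes). Hoxa11, Hoxd10 and Hoxc4 had 0 UMIs in these HE cells and at most 1.13 CPM in AE, so that a lower level was not detectable at this depth. In HOXB, Hoxb8 stood at 22.8 and 14.9 CPM against 26.6 and 19.2 CPM in AE, and Hoxb2 at 8.54 and 8.14 CPM against 17.2 and 12.4 CPM.

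Other endothelium held more HOXA and HOXC RNA than AE in both libraries. Its HOX sum was 356 and 278 CPM in the wild-type and SP3-null library, with HOXA at 153 and 110.5 CPM and HOXC at 14.3 and 12.1 CPM. Against AE, 8 members had a log2 ratio of 1 or more in both libraries (Hoxa2, Hoxa4, Hoxa5, Hoxc4, Hoxc6, Hoxc8, Hoxc9 and Hoxc10; 2.87% of all genes) and 0 had -1 or less (5.92%). Hoxa5 stood at 42.0 and 25.0 CPM, Hoxc9 at 5.95 and 5.38 CPM. Without the cells that carried neural or mesenchyme genes, 5 members had 1 or more (2.42%), Hoxa4, Hoxa5, Hoxc4, Hoxc6 and Hoxc10, and 0 had -1 or less (6.03%). Of these, Hoxc4 rested on 17 and 11 UMIs in other endothelium. Its intervals included 0 in both libraries (-0.38 to 3.82 and -0.26 to 7.95). HOXC then stood at 10.6 and 8.09 CPM, 1.21 and 1.45 above AE.

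Between the libraries, HOX RNA was lower in SP3-null endothelium. In the summed endothelium HOX genes stood at 272 (267 to 277) and 212 (208 to 217) CPM in the wild-type and SP3-null library, a log2 ratio of -0.36 (-0.40 to -0.32). The ratio was -0.43 for HOXA, -0.33 for HOXB, -0.32 for HOXD and -0.05 (-0.34 to 0.25) for HOXC. By position in the cluster it was -0.33 for paralogues 1 to 3, -0.32 for paralogues 4 to 8 and -0.46 for paralogues 9 to 13. By class, it was -0.51 in Wnt-high AE, -0.36 in Wnt-low AE, -0.44 in conflux AE, -0.31 in Wnt-high VE, -0.21 in Wnt-low VE and -0.36 in other endothelium. In pre-HE it was -0.18 with an interval that included 0, and in HE and IAC it was 0.02 and 0.04.

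Nearly all measured members pointed the same way. Of the 21 members with enough UMIs in the summed endothelium 18 had a ratio below 0, against 56.8% of all genes, and the median was -0.33, against -0.02 over all genes. A ratio of -0.5 or less was found for 4 members (5.17% of all genes) and a ratio of 0.5 or more for 0 (2.41% of all genes). The 4 were Hoxa10 at 6.87 and 4.28 CPM (-0.68, -0.96 to -0.40), Hoxa9 at 26.8 and 17.1 CPM (-0.65, -0.78 to -0.51), Hoxb6 at 5.42 and 3.70 CPM (-0.55, -0.86 to -0.24) and Hoxb3 at 10.6 and 7.403 CPM (-0.52, -0.74 to -0.30). The most abundant of the rest were closer to 0. Hoxb4 stood at 30.4 and 24.7 CPM (-0.30), Hoxb7 at 29.9 and 23.2 CPM (-0.37) and Hoxb8 at 26.0 and 23.3 CPM (-0.16). Hoxd10 at 0.998 and 1.39 CPM (0.48, -0.12 to 1.10), Hoxc9 (0.05), Hoxa4 (0.01) and Hoxd9 (-0.11) had the highest ratios, and each of their intervals included 0.

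The lower level came with cells in which no HOX UMI was captured, which does not show that they lacked HOX transcripts. Cells differ in depth, so cells with at least 15000 UMIs were compared. In the summed endothelium, 31 of 1155 such wild-type cells (2.68%) and 246 of 1124 such SP3-null cells (21.9%) had 0 HOX UMIs, at median depths of 23783 and 22886 UMIs. The same shares were 3.83% and 26.0% in AE, 2.13% and 20.2% in VE and 0.229% and 14.2% in other endothelium. In IAC the shares were 9.40% and 10.0%. Pre-HE and HE had no such cell in either library, among 31 and 13 pre-HE and 38 and 32 HE cells of this depth. With so few cells, the interval for SP3-null pre-HE reached 24.7%. Among such cells of the summed endothelium that did hold a HOX UMI, the median number was 6 in both libraries, and their HOX sum had a ratio of -0.04. Leaving out cells without HOX UMIs raises the sum more in the library that has more of them. These 2 values therefore only describe the cells that were kept.

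Thinning each cell to 5000 UMIs gave the same picture from the other side. A HOX UMI was found in 68.1% of the thinned wild-type and 52.2% of the thinned SP3-null cells of the summed endothelium, a difference of -15.9 percentage points (-18.8 to -12.97). Without thinning the shares were 83.9% and 66.1%. By class, the thinned shares went from 59.5% and 43.0% in Wnt-high AE to 94.5% and 80.6% in HE, and IAC stood at 63.5% and 64.1%. No class could serve as a background without HOX RNA, so the share that free RNA would give was not measured.

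The cells without HOX UMIs were mostly cells with Xist, the RNA of the inactive X chromosome. As the sexes of the pools were not known, cells with at least 5000 UMIs were split, after seeing the data, into Xist cells (3 or more Xist UMIs and 0 UMIs of 4 Y-linked genes) and Y cells (1 or more Y-linked UMIs and at most 1 Xist UMI). Of the 359 SP3-null cells without HOX UMIs over the summed endothelium and other endothelium, 77.2% were Xist cells and 16.4% Y cells, against 36.9% and 52.1% of the 1563 SP3-null cells with HOX UMIs. In the summed endothelium 190 of 500 deep SP3-null Xist cells (38%) held 0 HOX UMIs, against 3.83% of wild-type Xist cells. Among Y cells the shares were 7.31% and 2.33%.

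**Figure D3:**
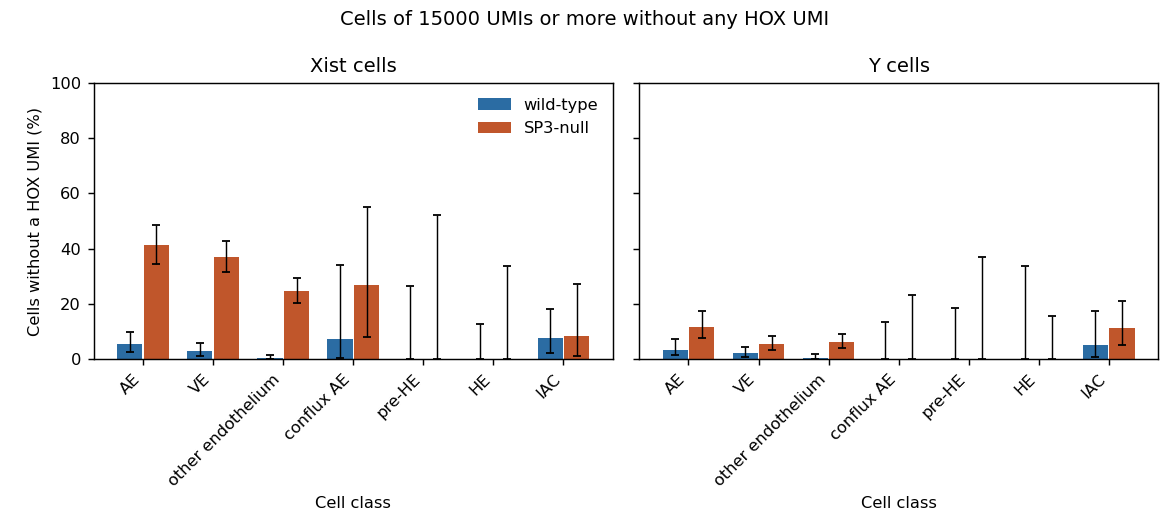
Share of cells with at least 15000 UMIs that held 0 HOX UMIs, in percent, by class, in Xist cells (left) and Y cells (right) of the wild-type and SP3-null library, with exact 95% binomial intervals. In AE it is 5.33% and 41.3% in Xist cells and 3.35% and 11.7% in Y cells.

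The lower HOX sum was seen in Xist cells. In the summed endothelium they stood at 261 CPM in 727 wild-type cells and 143 CPM in 845 SP3-null cells, a ratio of -0.87 (-0.94 to -0.79). Y cells stood at 285 CPM in 838 wild-type cells and 281 CPM in 841 SP3-null cells, a ratio of -0.02 (-0.08 to 0.04). Within the wild-type library Xist cells differed little from Y cells (-0.13), whereas within the SP3-null library they were 0.97 lower on the log2 scale. The pattern was found in AE, with -1.04 in Xist and -0.07 in Y cells, in VE with -0.73 and 0.00, in conflux AE with -1.15 and 0.26, and in other endothelium with -0.73 and -0.05. In pooled embryos, sex, embryo of origin and genotype of these cells cannot be told apart. The classes also differed in their share of Xist cells between libraries: in HE they were 39 of 55 wild-type and 10 of 36 SP3-null cells, and in IAC 59 of 126 and 25 of 103. In these classes the ratios were 0.67 and -0.24 in Xist cells and -0.37 and -0.07 in Y cells, with HE resting on 10 SP3-null Xist and 12 wild-type Y cells.

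**Figure D4:**
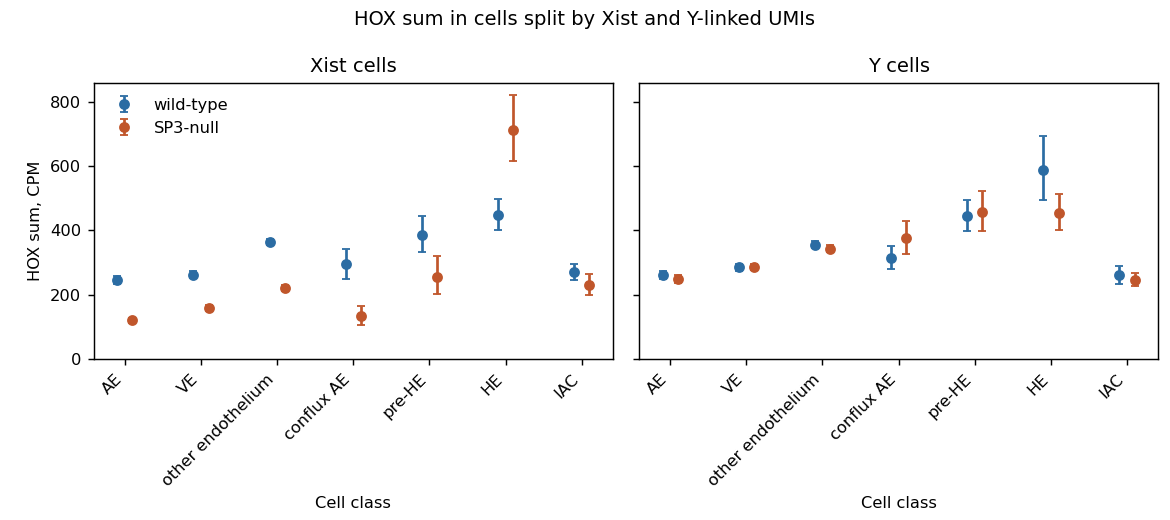
Summed HOX CPM by class in Xist cells and in Y cells of the wild-type and SP3-null library, with exact 95% Poisson intervals. In AE, Xist cells lie at 245 and 119 CPM in the wild-type and SP3-null library, and Y cells at 261 and 248 CPM.

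HOXA, HOXB and HOXD each gave lower sums in SP3-null Xist cells. The ratio in Xist cells was -0.88 for HOXA, -0.88 for HOXB, -0.84 for HOXD and -0.48 (-1.05 to 0.09) for HOXC, and in Y cells it was -0.13, 0.01, 0.10 and 0.29. Of 18 members measured in Xist cells all were below 0, and 15 had -0.5 or less (4% of all genes), the exceptions being Hoxd9, Hoxa4 and Hoxc9. None had 0.5 or more (2.83% of all genes), and the median was -0.93. Of 20 members in Y cells 0 had -0.5 or less (5.38% of all genes), 1 had 0.5 or more (Hoxd10, 2.36% of all genes), and the median was -0.03.

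**Figure D5:**
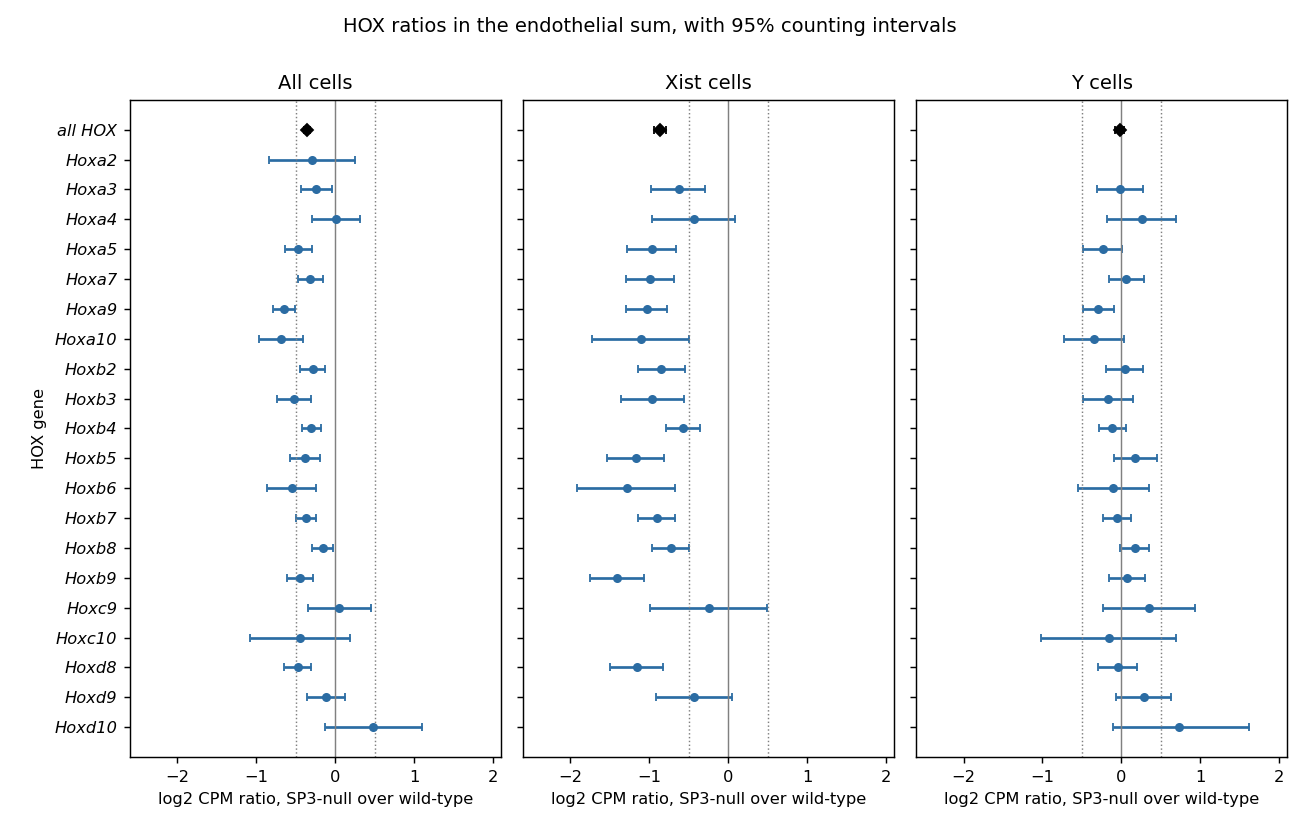
Log2 ratio SP3-null over wild-type of the HOX sum and of measured HOX genes (at least 50 UMIs in the cells drawn) in the summed endothelium, for all cells, for Xist cells and for Y cells, with exact 95% counting intervals. Hoxb9 lies at -0.45 over all cells, at -1.41 in Xist cells and at 0.07 in Y cells.

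In Xist cells, Hoxb9, Hoxb6, Hoxb5, Hoxd8 and Hoxa9 each had a ratio of -1 or less. Hoxb9 stood there at 16.9 and 6.37 CPM in the wild-type and SP3-null library (-1.41, -1.76 to -1.07), and at 18.6 and 19.5 CPM in Y cells (0.07). Hoxb6 followed at 5.17 and 2.12 CPM (-1.28) and Hoxb5 at 13.6 and 6.06 CPM (-1.17). Hoxd8 stood at 15.6 and 6.99 CPM (-1.15), and Hoxa9 at 24.9 and 12.2 CPM (-1.03). Hoxb4 was the least different of the 10 members with the most UMIs, at 29.6 and 19.9 CPM (-0.57). In Y cells Hoxa9 was the member whose interval stayed below 0 among these, at 27.6 and 22.6 CPM (-0.29, -0.49 to -0.09).

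HOX genes were co-detected in cells to a larger extent in the SP3-null library. In cells thinned to 5000 UMIs, for ordered pairs of the 10 members with the most UMIs, the share of cells with the second gene was, at the median, 1.17 times as high in cells with the first gene as in cells without it in the wild-type library, and 1.60 times as high in the SP3-null library. The medians were 1.17 and 1.59 for pairs of the same cluster and 1.17 and 1.61 for pairs of different clusters. In Xist cells the median over all pairs was 1.14 in the wild-type and 2.15 in the SP3-null library, and in Y cells 1.15 and 1.34. Cells without any HOX UMI count among the cells without the first gene and so raise the ratio of each pair. The higher ratios are therefore not separate from the larger share of such cells given above. A paralogue of 10 to 13 was found in 192 wild-type and 133 SP3-null thinned cells. These cells also held more RNA of paralogue group 9, by log2 ratios of 1.38 and 1.60 over the other cells. Hoxc9 had 2.40 and 2.68, from only 16 and 15 UMIs in these cells. Paralogues 4 to 8 had 0.26 and 0.78. Paralogues 1 to 3 had 0.49 and 0.32, the latter with an interval that included 0. Cells with neural or mesenchyme genes were not left out here. In other endothelium such cells held 124 wild-type and 115 SP3-null HOXC UMIs.

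SP3-null cells without HOX UMIs also held less RNA of some genes that work with or upstream of HOX genes. The cells were chosen for their HOX counts, so these values describe them. Rarb, a retinoic acid receptor, stood at 1.28 CPM in cells without and 8.17 CPM in cells with HOX UMIs (log2 ratio -2.68). Cyp26b1, which breaks down retinoic acid, stood at 12.1 and 42.7 CPM (-1.82), and Meis2, a HOX cofactor, at 6.03 and 20.5 CPM (-1.77). RNAs from within the clusters were low as well, Hotairm1 with 4.06 and 16.3 CPM (-2.01) and Hoxb3os with 3.60 and 11.01 CPM (-1.61).

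Among HOX partners and upstream factors, Meis2, Meis1, Cyp26a1, Gdf11 and Rarb had a ratio of -0.5 or less. Of 9 cofactors 6 were measured in the summed endothelium, with a median ratio of -0.13 and 2 at -0.5 or less (5.17% of all genes). Pbx2 at 54.2 and 58.7 CPM (0.11) was the highest. Meis2 at 29.6 and 18.3 CPM (-0.69, -0.83 to -0.56) was the lowest, followed by Meis1 (-0.52). In HE, Meis1 stood at 74.7 and 98.3 CPM, far above its AE level of 1.90 and 1.55 CPM. Of 13 upstream and axial factors 7 were measured, with a median of -0.41 and 3 at -0.5 or less (5.17% of all genes). Cyp26a1, also an enzyme that breaks down retinoic acid, was the lowest at 2.19 and 1.24 CPM (-0.82), followed by Gdf11 (-0.74) and Rarb (-0.54). Cyp26b1 stood at 57.3 and 43.2 CPM (-0.41), and Rara was the highest at 17.7 and 22.0 CPM (0.32).

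The complexes that keep HOX genes on or off differed little. The 8 members of the activating list had a median of -0.02, from -0.16 for Rbbp5 to 0.12 for Kmt2b, with Kmt2a, the MLL methyltransferase, at 81.3 and 79.98 CPM (-0.02) and Psip1 at 0.10. Of 14 Polycomb genes 13 were measured, with a median of -0.04, from Cbx8 at -0.38 to Ring1 at 0.27, and with Ezh2 at 174 and 164 CPM (-0.08) and Suz12 at 92.1 and 89.5 CPM (-0.04). Genes that flank the clusters had a median of -0.06 over 12 of 14, from Skap2 at -0.20 to Evx1 at 1.00, with Hnrnpa1 at 943 and 939 CPM and Hnrnpa3 next to it in abundance. Evx1 stands beside HOXA and held 0.903 and 1.80 CPM. The 5 measured noncoding RNAs of the clusters, of 8 found, had a median of -0.08 and 2 at -0.5 or less (5.17% of all genes). Hoxaas3, in the middle of HOXA, was the lowest at 7.72 and 5.37 CPM (-0.52), and Hoxb5os the highest at 0.594 and 0.684 CPM (0.20). Hotairm1, at the front end of HOXA, and Hoxb3os were closer to 0, at -0.08 and -0.03. By sex marker, Meis2 had ratios of -0.97 in Xist and -0.53 in Y cells, Cyp26b1 -0.78 and -0.27, Rarb -0.92 and -0.35, and Hotairm1 -0.47 and 0.05. Other members differed the other way, as Hoxaas3 with -0.36 in Xist and -0.63 in Y cells and Gdf11, an axial signal, with -0.40 and -0.78. Evx1 stood at -1.16 (-2.50 to 0.07) in Xist and 1.93 (1.02 to 2.93) in Y cells, from 18 and 9 UMIs in Xist and 13 and 49 UMIs in Y cells.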

How the data were processed

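Single-cell RNA-seq libraries of 1 wild-type and 1 SP3-null pool were analysed. The authors aligned reads of the Chromium 3' version 3 kit to mm10 (GRCm38) with Cell Ranger (version not given in the sources used here), removed barcodes under 1000 UMIs or 1000 genes and contaminating cell types, and assigned classes from the 3 nearest cells of a published map. The deposited matrix gives, for each cell and gene, a count of UMIs without scaling, and the deposited fraction of mitochondrial UMIs per cell was used for description only. No doublets were removed here.

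UMIs were summed per class and library and divided by the summed total (CPM). CPM carry exact Poisson, ratios exact conditional binomial and shares Clopper-Pearson 95% intervals. Differences of shares carry intervals that join the Clopper-Pearson limits of both shares by a square-and-add rule. The software was Python 3.11.15, numpy 2.4.6, scipy 1.17.1 and pandas 2.3.3. The intervals of CPM, ratios and shares were tested on simulated Poisson and binomial counts. Those counts had no spread between cells or pools, so the test does not cover such spread. Named were HOX genes with 50 UMIs or more, in full the 10 with the most UMIs, the leading member of each cluster, the 4 highest and 4 lowest ratios and those with a log2 ratio of 0.5 or more in size, and of each gene list the 2 most abundant, the highest and the lowest. For classes against AE the limit was a log2 ratio of 1. Class comparisons used classes of at least 30 cells per library. HOX members, lists and tests were chosen with earlier results of these data known, and the splits by Xist and Y-linked genes and by neural, mesenchyme or other-lineage markers after seeing the data. Alternatives were edgeR 4.0.16 and DESeq2 1.42.0 scaling in R 4.3.3, other UMI minimums, folds, cells and weights, and thinning to 5000 UMIs. The deposited table holds more arterial cells than the study lists. The 1 fetal liver stem cell entered totals only. Some genes are not reported here by name, but their UMIs entered the sums and counts.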

Additional observations from a re-analysis of the deposited data

Results flagged for a closer look

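Some sums differed in direction between sets of cells, either between classes, with both counting intervals clear of 0, or between Xist cells, with an interval below 0, and Y cells, with a ratio above 0. With 1 library per genotype none of these differences was tested. HOXB had a log2 ratio of SP3-null over wild-type of -0.59 in Wnt-high AE and 0.26 in IAC, and of -0.88 in Xist cells and 0.011 in Y cells of the summed endothelium. HOXD stood at -0.84 in Xist cells and 0.10 in Y cells, and paralogues 4 to 8 at -0.85 and 0.0018. The HOX sum of venous endothelium stood at -0.73 in Xist cells and 0.0046 in Y cells.

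By class, HOXC had a ratio of -1.12 in Wnt-high AE and 0.73 in HE, paralogues 1 to 3 values of -0.47 in Wnt-high AE and 0.66 in IAC, and paralogues 9 to 13 values of -0.75 in Wnt-high AE and 0.28 in HE. Single members did so too. Hoxa4 stood at -0.35 in other endothelium and at 2.52 in conflux AE, the latter from only 2 wild-type and 8 SP3-null UMIs. Hoxb3 stood at -1.15 in Wnt-high AE and 1.23 in IAC. Hoxb9 stood at -1.69 in pre-HE, from 39 and 7 UMIs, and at 0.72 in HE. Hoxc10 stood at -2.01 in Wnt-high AE, from 10 and 3 UMIs, and at 3.65 in HE, from 1 and 10 UMIs. The HE values of HOXC, Hoxc10, Hoxb9 and paralogues 9 to 13 include the cells with neural genes, in which all HOXC UMIs of SP3-null HE lay. Without those cells the HE ratio of paralogues 9 to 13 was 0.17 (-0.15 to 0.49), an interval that includes 0, and that of Hoxb9 was 1.22 (0.26 to 2.21). Of 34 HOX sums and genes compared over classes, 8 had such opposite ratios, and the share that counting error alone gives was not computed.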

How the results depend on the processing

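No paired analysis was possible because there was 1 library per genotype. The lower HOX sum of the SP3-null library kept its direction under all 11 settings chosen at the start, between -0.49 in AE alone and -0.27 in VE alone, with -0.32 when classes weighed alike and -0.40 after thinning. TMM and DESeq2 factors shifted all ratios by 0.02. Chosen after seeing the data, Xist cells gave -0.87 and Y cells -0.021 (-0.86 and -0.017 with stricter limits), and deep cells with a HOX UMI -0.040. The deep cells were picked by the HOX counts themselves, so their value is only a description. For HOXA the values were -0.50 in AE alone, -0.88 in Xist and -0.13 in Y cells, -0.33 with classes alike and -0.52 thinned. For HOXB they were -0.49 in AE, -0.21 in VE, -0.88 in Xist and 0.011 in Y cells. For HOXC they were -0.62 in AE, -0.48 in Xist cells, 0.29 in Y cells and 0.34 with classes alike. HOXD stood at -0.84 in Xist and 0.10 in Y cells, and paralogues 4 to 8 at 0.0018 in Y cells.

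The 4 members at -0.5 or less became 11 with no UMI minimum, 0 at a log2 fold of 1, 15 in Xist and 0 in Y cells, and the 0 members at 0.5 or more became 1 in Y cells. For IAC over AE, the wild-type sum of -0.08 became 0.15 with cells alike, 0.11 without other-lineage cells and 0.14 in Xist cells. The SP3-null sum of 0.45 became 0.72 thinned, 0.67 with cells alike, 0.99 without other-lineage cells, 0.93 in Xist and -0.0095 in Y cells, and its HOXB ratio became 0.21 without other-lineage cells and 0.49 in Xist cells. For HE over AE, the wild-type sum of 1.03 became 0.70 without other-lineage cells, 0.86 in Xist and 1.17 in Y cells, and its HOXB ratio of 0.42 became -0.38. The SP3-null sum of 1.54 became 1.34 thinned, 1.34 with cells alike, 1.06 without other-lineage cells, 2.58 in Xist and 0.87 in Y cells. The wild-type VE over AE ratio of 0.09 became -0.044 thinned. Without neural or mesenchyme cells the counts above AE were 4 in HE and 5 in other endothelium. The share difference of -15.9 points became -8.83 for 2 UMIs or more, -31.9 in Xist and -0.718 in Y cells. In Y cells it was 1.18 in VE and 4.81 in conflux AE, and 3.09 for paralogues 9 to 13 in other endothelium. The cause of these shifts was not tested. Depth limits HOXC, HOXD in IAC and the 13 members under 50 UMIs.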

Other observations

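SP3-null cells of at least 15000 UMIs without HOX UMIs also held more RNA of some genes outside the HOX lists. These genes were named by the size of the ratio after their values were seen. Apoe, an apolipoprotein, stood at 121 CPM in cells without and 24.6 CPM in cells with HOX UMIs (log2 ratio 2.30), and Car2, a carbonic anhydrase, at 95.5 and 22.4 CPM (2.09). Only genes higher in each of AE, VE and other endothelium could be named, so that shared direction was a condition of the choice. In these classes Apoe was higher by 1.97, 2.39 and 2.28 and Car2 by 1.07, 2.18 and 2.92. Slc38a3 (1.75), Ahnak (1.72) and Foxl2 (1.71) followed. The cells were chosen for their HOX counts and most were Xist cells, so these values describe them.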
